A study of Mus musculus with 2 samples.

Results

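The genes described here encode the proteins that choose and cut introns. They are the genes whose single annotated symbol begins with Hnrnp, Srsf, Snrp, Sf3a or Sf3b, selected by name and not by their values, and 47 of the 18193 genes with a single symbol on the array met that rule. They fall into 19 hnRNP genes, 10 SR genes, 9 Snrp genes and 9 SF3 genes, and they were measured by 139 probe sets. The study prepared mouse embryo fibroblasts (MEFs) from day 12.5 embryos of Ebp1 knock out mice and from wild type embryos. RNA from passage 2 cells was hybridized to 1 Affymetrix array per genotype, so no spread between replicates exists and no test was possible for any value below. The knock out mice carry a retroviral gene trap in intron 2 of Pa2g4, the gene that encodes Ebp1, so that the start of Ebp1 is made as a fusion with the neomycin marker. The strain was kept on a mixed background of C57BL/6 and the strain of the trapped embryonic stem cells. The sources used here do not say how many embryos or cultures gave each RNA. Because array, culture and genotype coincide, a difference between the genotypes cannot be told apart from a difference between cultures or between hybridizations.

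Introns are removed by the spliceosome, which is built from small nuclear ribonucleoproteins (snRNPs) on each new transcript. A ring of Sm proteins holds the small nuclear RNA of most snRNPs, and the SF3a and SF3b complexes belong to the U2 snRNP and place it on the branch point of the intron. SR proteins carry arginine and serine rich tails and mostly promote the use of nearby exons, while many hnRNPs coat the transcript and often oppose them. Dividing cells are known to hold these factors at high levels, and several of the genes limit their own mRNA through alternative exons. Ebp1 itself is an RNA binding protein that has also been placed at E2F1 regulated promoters.

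Because of that link, the promoters of the splicing genes were searched for the E2F motif, taken as TTTCCCGC, TTTCGCGC, TTTGCCGC or TTTGGCGC on either strand. The RefSeq promoter table for GRCm38.p6 holds a window of 300 bases, from 250 before to 50 after a start site. It had 58 windows for 42 of the 47 genes. An E2F motif was found in 5 of these 58 windows (8.62%), against 2.26% of all 32851 windows in the table. The windows with a motif belonged to Hnrnpr, Hnrnpul1, Snrpn, Srsf1 and Srsf10. Of these, 4 are shown, with the motif in capitals. Snrpn is left out because the probe set assigned to it alone was under 100 on both arrays.
Srsf1: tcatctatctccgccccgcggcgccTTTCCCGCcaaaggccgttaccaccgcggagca
Srsf10: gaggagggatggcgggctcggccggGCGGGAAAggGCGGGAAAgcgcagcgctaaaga
Hnrnpr: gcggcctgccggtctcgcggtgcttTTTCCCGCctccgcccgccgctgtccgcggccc
Hnrnpul1: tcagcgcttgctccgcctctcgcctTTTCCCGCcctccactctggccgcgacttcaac

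The stretch of Srsf1 lies at chr11:88047281-88047338 (plus strand), with the motif starting 67 bases before the start site. That of Srsf10 lies at chr4:135855848-135855905 (plus strand) and holds a pair of motifs on the opposite strand, which overlap GC boxes, and a further motif lies 62 bases before the start. The stretch of Hnrnpr, from 1 of its 2 windows, is at chr4:136311356-136311413 (plus strand), and that of Hnrnpul1 at chr7:25754939-25754996 (minus strand), where the motif also overlaps a GC box. Other motifs were counted in the same windows. The ETS motif CCGGAAG was present in 34.5% of the splicing gene windows and in 8.86% of all windows, and the GC box GGGCGG in 67.2% of the splicing gene windows and 35.7% of all. The remaining motifs were closer to the share in all windows. CCAAT was in 46.6% of the splicing gene windows and in 37.4% of all, and TATAAA was in 10.3% of the splicing gene windows and 13.6% of all. The YY1 motif AAGATGGCG and the CRE motif TGACGTCA were each found in 1 of the 58 windows (1.72%). Over all windows, the share was 1.40% for YY1 and 1.79% for CRE. The splicing gene windows were also richer in CpG, with a median of 25 CpG and 60.7% GC, against 7 CpG and 52.7% GC over all windows. The part of base composition in the motif shares was not tested. Stretches with ETS motifs in capitals are shown for 3 genes whose motifs lie wholly before the start site, a Sm protein gene, a U2 snRNP protein gene and an SR gene.
Snrpg: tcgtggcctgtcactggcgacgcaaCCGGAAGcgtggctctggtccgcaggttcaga
Snrpb2: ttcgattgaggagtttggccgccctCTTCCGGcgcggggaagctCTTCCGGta
Srsf5: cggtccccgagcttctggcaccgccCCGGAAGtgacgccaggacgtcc

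These lie at chr6:86371370-86371426 for Snrpg, chr2:143063016-143063068 for Snrpb2 and chr12:80945451-80945498 for Srsf5, all on the plus strand. A motif match describes the letters of the window and does not show that a factor binds there.

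The deposited values are MAS5 signals, which are linear intensities that the authors brought to a common mean on both arrays. A signal under 100 was treated as low. All ratios are knock out over wild type, given as log2. The trapped gene was checked first. The brightest probe set of Pa2g4 read 1178 in knock out MEFs and 1835 in wild type MEFs (-0.64). The log2 ratio was below 0 on each of its 5 probe sets, from -0.90 to -0.33. The signal was 100 or more on 4 of these 5 probe sets in the library labelled knock out, so the arrays show a lower level of Pa2g4 there and not its absence. Which probe sets lie beyond the trap was not determined, so these values do not settle whether the full transcript was lost, and knock out stands for the label of that library throughout. All 10 fibroblast markers examined were at 100 or more on both arrays, with a summed signal of 54660 in knock out and 55303 in wild type MEFs. Their log2 ratios were not alike, with 4 above 0 and 6 below. Dcn, the gene of the matrix protein decorin, was lowest, at 419 in knock out and 1275 in wild type MEFs (-1.61), followed by Pdgfrb (-0.67), Thy1 (-0.58) and Postn (-0.47). Of the markers of other cell types, the epithelial list had a summed signal of 1759 in knock out and 436 in wild type MEFs. The largest part was Epcam (1350.5 in knock out and 174 in wild type MEFs). Krt19 had 197 in knock out and 88.0 in wild type MEFs (1.17), while Cdh1, Krt8 and Krt18 were under 100 on both arrays. The summed signals of the endothelial list were 219.9 in knock out and 199 in wild type MEFs, and those of the neural list 313 in knock out and 314 in wild type MEFs. The blood and macrophage list summed to 678 in knock out and 649.7 in wild type MEFs. Of this list, Csf1r had 385 in knock out and 366 in wild type MEFs. Adgre1 had 154 in knock out and 146 in wild type MEFs. Ptprc, Cd68 and Hba-a1 were under 100 on both arrays. The skeletal muscle list summed to 201 in knock out and 161 in wild type MEFs. Myod1, Myf5 and Myog were under 100 on both arrays, while Des reached 100 in knock out MEFs only. The part of these marker differences in the splicing gene values was not tested.

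Each gene was represented by its brightest probe set, the one whose log2 signal averaged highest over both arrays. Most splicing genes were bright in both genotypes. Both arrays read 100 or more for 45 of the 47 genes, and 44 of them reached 500 on 1 array or both. Over all genes, 58.0% reached 100 and 27.6% reached 500 on 1 array or both. Hnrnph3 was the measured gene nearest to the low range, with 356 in knock out and 425 in wild type MEFs, and the next below it was Srsf12, with 22.0 in knock out and 20.8 in wild type MEFs. The plot of signals by gene shows the remaining genes to the right of both, except Snrpn (9.23 in knock out and 13.0 in wild type MEFs). The 2 signals of most genes lie almost on top of each other.

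**Figure D1:**
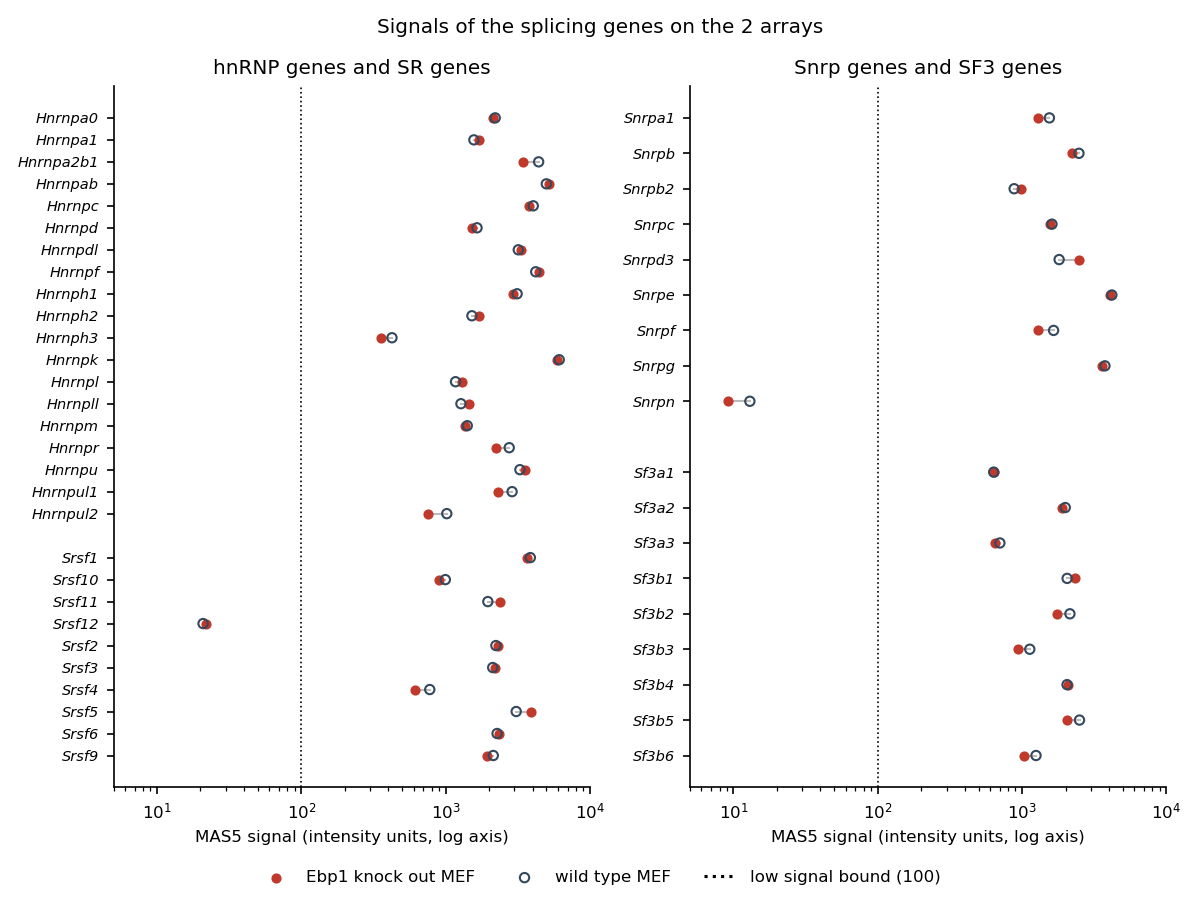
Signals of the 47 splicing genes in Ebp1 knock out MEFs (filled red) and wild type MEFs (open dark circles), in intensity units on a logarithmic axis, 1 array each. The dotted line marks a signal of 100, below which lie only Srsf12 and Snrpn, and the widest gap among the others is that of Snrpd3 (2465 in knock out and 1806 in wild type MEFs).

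The study's methods set a minimum signal of 500 and a 2-fold difference. None of the 44 splicing genes that reached 500 was over 2-fold apart between the genotypes, where 1.81% of the 5014 genes that reached 500 were. None was over 1.5-fold apart either, where the share over all genes was 8.10%. The log2 ratios of the 45 measured genes ran from -0.44 for Hnrnpul2 to 0.45 for Snrpd3. Their median was -0.06, and the median over all 10553 genes that reached 100 was also -0.06. Of the 45 genes, 18 were above 0 and 27 below, and the share above 0 was 40.0%, against 41.9% over all genes. This split moved with the processing for both. It was 10 of 45 splicing genes and 29.2% of all genes above 0 after median centring, and 1 of 45 and 9.33% after spike-in scaling. When all probe sets were averaged per gene, it was 23 of 45 splicing genes and 51.5% of all genes. The log2 ratio was within 0.2 of 0 for 30 of the 45 genes (66.7%) and for 45.5% of all genes. The standard deviation of log2 ratios across genes was 0.46 over all measured genes. Bright genes vary less on these arrays, so genes with a mean signal over 1000 were also compared. In that range the standard deviation was 0.20 for the 38 splicing genes and 0.28 for all 2268 genes. The log2 ratio was within 0.2 of 0 for 68.4% of these 38 genes and 60.7% of the 2268. Among the 2268, 8 were over 2-fold higher and 11 over 2-fold lower in knock out MEFs. Over 1.5-fold, 47 were higher and 57 lower. The shares of 1.81%, 8.10% and 45.5% above also cover dimmer genes. The standard deviations are spreads across genes of 1 pair of arrays and not errors of a value.

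**Figure D2:**
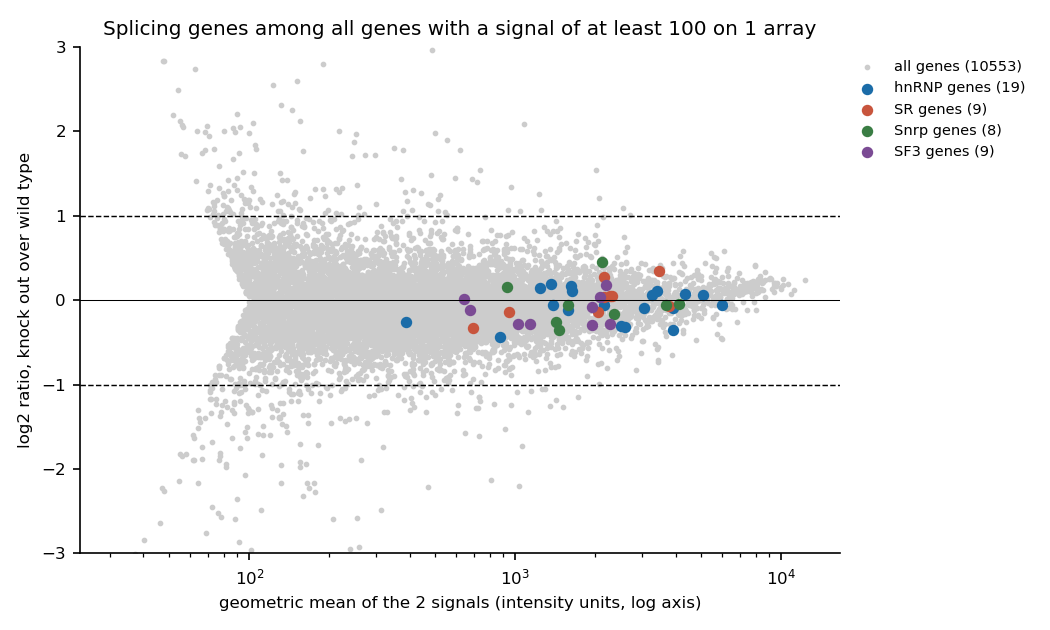
Knock out signal divided by wild type signal (log2) on the vertical axis against the geometric mean of the 2 signals on a logarithmic horizontal axis, for 1 probe set per gene with 100 or more on either array. The 45 splicing genes (coloured by class) lie between -0.44 and 0.45, inside the dashed lines of a 2-fold ratio, among all 10553 genes (grey), of which 13 lie beyond the axis.

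The hnRNP genes had a median log2 ratio of -0.06, with 8 of 19 above 0 and 11 below. The 3 genes with the highest signals were nearly equal in both genotypes on their brightest probe sets. Hnrnpk, which encodes a protein that binds C-rich RNA, had 5881 in knock out MEFs and 6125 in wild type MEFs (-0.06). Hnrnpab, an hnRNP of the A/B type, had 5182 in knock out and 4985 in wild type MEFs (0.06). Hnrnpf, which encodes a protein that binds runs of G, had 4443 in knock out and 4210.1 in wild type MEFs (0.08). Over all their measured probe sets, Hnrnpk ran from -0.26 to 0.18, Hnrnpab from -0.37 to 0.65 and Hnrnpf from -0.07 to 0.42. The genes with the lowest ratios included members of the U and A/B families. Hnrnpul2, a relative of Hnrnpu on chromosome 19 (8819401 to 8834143), had 753 in knock out MEFs and 1019 in wild type MEFs (-0.44). Its other probe set, with 849.7 in knock out and 829 in wild type MEFs, was at 0.03, so the lowest ratio among the splicing genes rests on 1 of 2 probe sets. Hnrnpa2b1, which encodes a general splicing repressor that also binds mRNA for transport, had 3455 in knock out and 4410.5 in wild type MEFs (-0.35). Hnrnpul1 had 2322 in knock out and 2887 in wild type MEFs (-0.31). Hnrnpr, an hnRNP related to Syncrip, had 2236 in knock out and 2759 in wild type MEFs (-0.30).
The highest ratios among hnRNP genes were smaller in size than these. Hnrnpll, known for the alternative splicing of Ptprc in T cells, had 1459 in knock out and 1276 in wild type MEFs (0.19). Its other probe set was at -0.15. Hnrnph2 had 1708 in knock out and 1521 in wild type MEFs (0.17), and Hnrnpl, which encodes a protein that binds CA repeats, had 1297 in knock out and 1172 in wild type MEFs (0.15). Hnrnpa1, the best studied splicing repressor of the group, was at 1697 in knock out and 1569 in wild type MEFs (0.11). Its next brightest probe set had 1325 in knock out and 1819 in wild type MEFs (-0.46), and its dimmest was at -0.05. The direction for Hnrnpa1 therefore depends on the probe set chosen. Probe sets that the annotation shares between Hnrnpa1 and other symbols were all above 0, at 0.36, 0.14 and 0.06. The brightest of these had 2091 in knock out and 1635 in wild type MEFs (0.36). The remaining genes of the class, among them Hnrnpc, Hnrnpd, Hnrnpm and Hnrnpu, lay between -0.26 (Hnrnph3) and 0.11 (Hnrnpu).

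The SR genes had a median log2 ratio of 0.04 over 9 measured genes, 5 above 0 and 4 below. This median was below 0 after median centring of the arrays (-0.06), after scaling to the spike-ins (-0.35) and without the _x_at and _s_at probe sets (-0.07). Srsf5, first described in rats as a gene induced in growing liver, had 3911 in knock out MEFs and 3083 in wild type MEFs (0.34). Srsf11 had 2374 in knock out and 1961 in wild type MEFs (0.28), while its 3 dimmer probe sets ran from -0.45 to 0.09. At the other end Srsf4 had 617.5 in knock out and 776 in wild type MEFs (-0.33). The SR genes that are best known as general splicing activators lay close to 0. Srsf1, the gene of the factor first called ASF or SF2, had 3677 in knock out and 3863 in wild type MEFs (-0.07). Srsf2 had 2316 in knock out and 2230.2 in wild type MEFs (0.05), Srsf3 had 2182 in knock out and 2119.8 in wild type MEFs (0.04), and Srsf6 had 2351 in knock out and 2272 in wild type MEFs (0.05). Srsf9 (-0.14) and Srsf10 (-0.14), which encodes an SR protein that turns into a general repressor on heat shock, were a little lower in knock out MEFs. Srsf12 was low on both arrays and no ratio is given.

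The Snrp genes held the highest log2 ratio of all the splicing genes. Snrpd3, which encodes a Sm core protein and lies on chromosome 10 (75518042 to 75535440), had 2465 in knock out MEFs and 1806 in wild type MEFs (0.45). The Sm proteins act as one ring, and the 4 other Sm genes with measured probe sets of their own had ratios below 0. Snrpe had 4063 in knock out and 4186 in wild type MEFs (-0.04), and Snrpg had 3604 in knock out and 3749.8 in wild type MEFs (-0.06). Snrpb had 2213 in knock out and 2478 in wild type MEFs (-0.16), and Snrpf had 1295 in knock out and 1652 in wild type MEFs (-0.35). After spike-in scaling, which lowers every ratio alike, Snrpd3 was at 0.06. The other measured probe set of Snrpd3 was closer to 0 (0.16). Snrpd1 and Snrpd2, which complete the ring, were measured only by probe sets shared with other symbols, at 0.29 for Snrpd1 and -0.14 for Snrpd2. Among the proteins of single snRNPs, the U2 gene Snrpb2 had 981 in knock out and 881 in wild type MEFs (0.15). The other U2 gene, Snrpa1, had 1297 in knock out and 1545 in wild type MEFs (-0.25), with 0.07 and 0.29 on its dimmer probe sets. Snrpc of the U1 snRNP was nearly equal, at 1551 in knock out and 1610.3 in wild type MEFs (-0.05). Over the 8 measured Snrp genes the median was -0.06, with 2 above 0. Snrpn, an imprinted gene known from neurons, was low on the only probe set assigned to it alone (9.23 in knock out and 13.0 in wild type MEFs).

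The SF3 genes had a median log2 ratio of -0.11, with 3 of 9 above 0. It depended on the probe set chosen, with -0.03 without the _x_at and _s_at probe sets, -0.01 with the mean over probe sets of at least 100, and 0.04 with the mean over all probe sets. On the brightest probe sets, those with the lowest ratios were 4 SF3b subunits. Sf3b2 had 1756 in knock out MEFs and 2145 in wild type MEFs (-0.29). Sf3b6, which encodes the small subunit that touches the branch point adenosine, had 1024 in knock out and 1249 in wild type MEFs (-0.29). Sf3b5 had 2059 in knock out and 2499 in wild type MEFs (-0.28), and Sf3b3 was at -0.28 as well. The others lay around 0 or above. Sf3b1, the gene of the largest SF3b subunit and a frequent target of mutation in blood cancers, had 2329 in knock out and 2051 in wild type MEFs (0.18), while its 3 dimmer probe sets ran from -0.27 to 0.01. Sf3b4 had 2095.3 in knock out and 2049 in wild type MEFs (0.03), and Sf3a1 had 642 in knock out and 636 in wild type MEFs (0.01). Sf3a2 (-0.08) and Sf3a3 (-0.11) completed the SF3a complex.

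**Figure D3:**
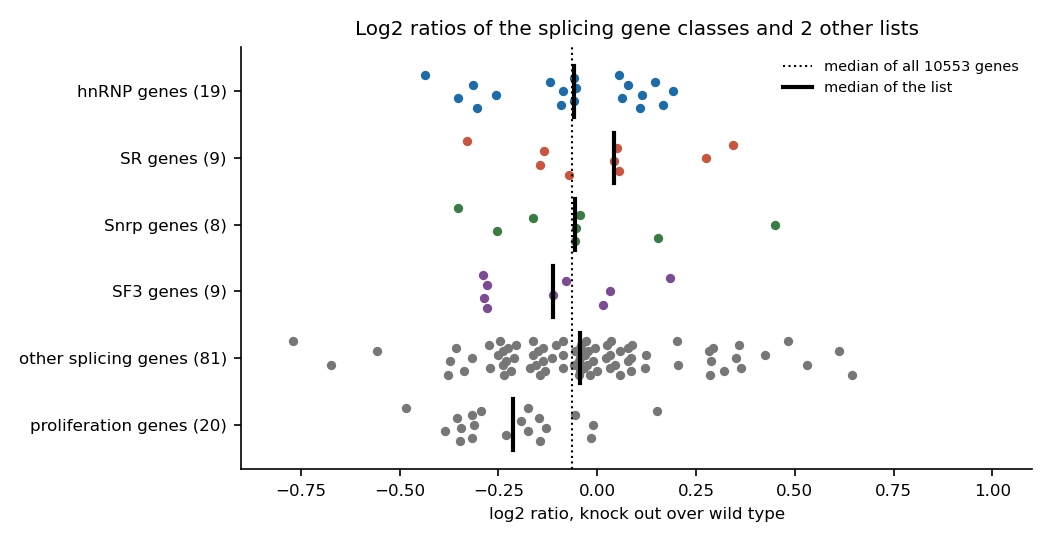
Knock out signal divided by wild type signal (log2) for the measured genes of the 4 splicing gene classes (coloured) and of 2 other lists (grey), with their number in parentheses. The black bar is the median of a list and the dotted line the median of all 10553 genes (-0.06), and only the proliferation list has its median (-0.21) below the medians of all 4 classes (-0.11 to 0.04).

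A wider set of splicing factors lay close to the named families. Of 90 other splicing genes listed, 84 were on the array and 81 reached 100, and their median was -0.04, with 31 above 0 and 50 below. None was over 2-fold apart, and 3 of the 60 that reached 500 were over 1.5-fold apart, where the share over all genes was 8.10%. Lsm6, which encodes a part of the Sm-like ring of the U6 snRNP, had 843 in knock out MEFs and 539.8 in wild type MEFs (0.64). Rbm25, a regulator of 5' splice site choice, had 949 in knock out and 621 in wild type MEFs (0.61). Srrm1, which encodes an SR related coactivator, had 919 in knock out and 1465 in wild type MEFs (-0.67), but was at 0.15 without the _x_at and _s_at probe sets. Taf15, under 500 on both arrays (-0.77), and Prpf4b (-0.56) were the other low ones. Both were above 0 with the mean over all probe sets (0.68 for Taf15 and 0.06 for Prpf4b). With the mean over probe sets of at least 100, Taf15 stayed at -0.77 and Prpf4b was at -0.06. Smn1 (0.53), the gene of the protein that loads Sm rings, was the next high one. For comparison, 20 proliferation genes that reached 100 had a median of -0.21, with 19 of the 20 below 0, among them Mki67 at 1009 in knock out and 1409.9 in wild type MEFs (-0.48). The median of the splicing genes (-0.06) was nearer to that of all genes, and the part of culture growth in either value was not tested.

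Probe sets of the same gene often disagreed. Of the 47 genes, 35 had over 1 probe set, with 7 at most. In 32 genes at least 2 probe sets reached 100, and their log2 ratios lay on both sides of 0 in 23 of these, where 52.6% of the 4479 genes of this kind on the array did so. The range between probe sets was over 1 on the log2 scale in 9 of 32 splicing genes, where the share over all such genes was 14.8%. The median range was 0.54 for splicing genes and 0.44 for all. The 47 splicing genes have 139 probe sets, against 34945 for all 18193 genes, and a range can only widen with each probe set added. The genes were not matched on this number, so the comparison is a description only.

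**Figure D4:**
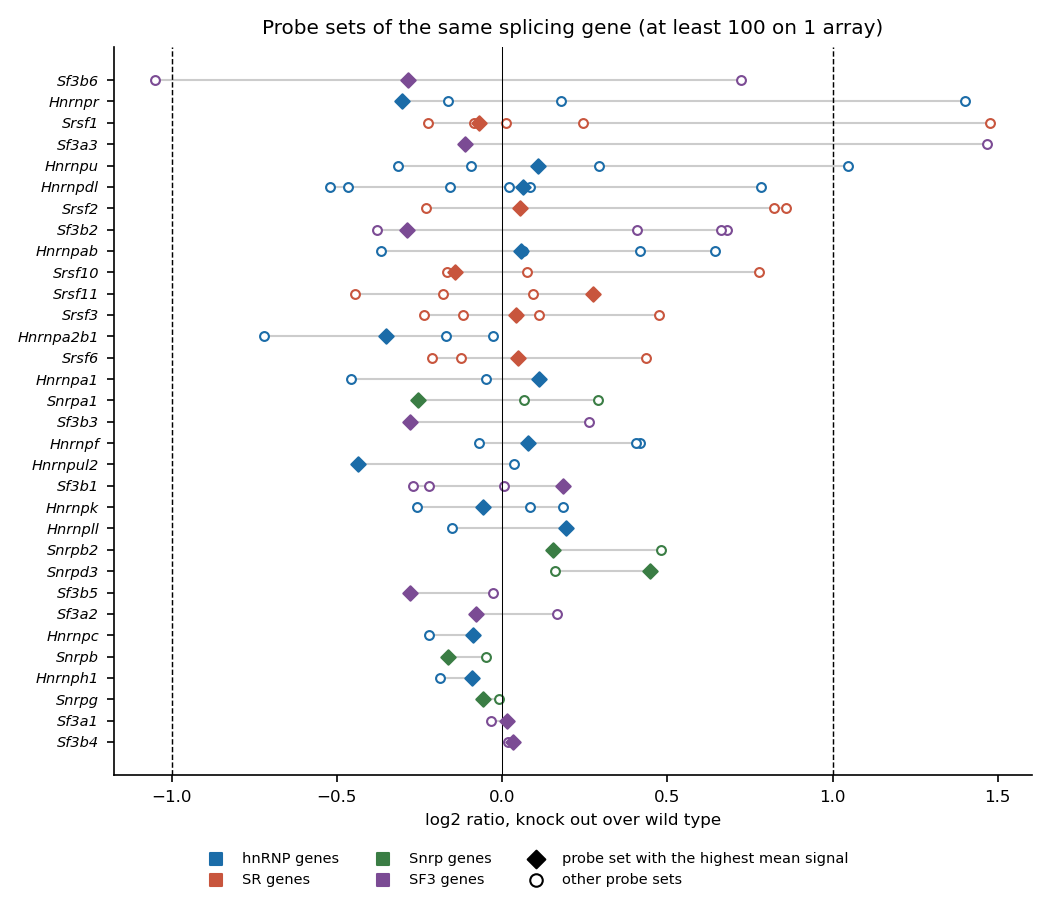
Knock out signal divided by wild type signal (log2) for each probe set with 100 or more on either array, for the 32 splicing genes with at least 2 such probe sets, ordered by their range. Diamonds mark the probe set with the highest mean signal, which lies between -0.44 and 0.45 in each gene, while open circles reach from -1.05 (Sf3b6) to 1.48 (Srsf1).

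Probe sets with lower signals gave most of the ratios beyond 1.5-fold, and these mostly lay above 0. Of 75 measured probe sets that were not the brightest of their gene, 12 were over 1.5-fold higher in knock out MEFs, where 16.0% of such probe sets on the whole array were. Only 2 were over 1.5-fold lower, against 5.92% on the whole array. Both shares lay near those of the whole array or below them. Among all 96 splicing gene probe sets that reached 500, 3 were over 2-fold apart, where 2.61% of the 7162 single symbol probe sets were.
These 3 belonged to Srsf1, Hnrnpu and Sf3b6. An _s_at probe set of Srsf1, a suffix for probes shared between transcripts, had 962 in knock out MEFs and 346 in wild type MEFs (1.48). The brightest probe set of Srsf1 was at -0.07, and the other 4 measured ones ran from -0.22 to 0.25. A probe set of Hnrnpu, the gene of a nuclear scaffold protein, had 1629 in knock out and 789 in wild type MEFs (1.05). The other 4 probe sets of Hnrnpu ran from -0.32 to 0.29.
Sf3b6 (chromosome 12, 4817608 to 4827659) had probe sets beyond 1.5-fold in both directions. Its brightest probe set gave 1024 in knock out and 1249 in wild type MEFs (-0.29). The next gave 999 in knock out and 605 in wild type MEFs (0.72). Another, whose suffix _x_at marks probes shared with other sequences, gave 511 in knock out and 1058 in wild type MEFs (-1.05). The direction for Sf3b6 therefore depends on the probe set chosen.
Further genes had a dimmer probe set well above 0. Hnrnpr had 364 in knock out and 138 in wild type MEFs on a dimmer probe set (1.40), against -0.30 on the brightest. Sf3a3 had 466 in knock out and 169 in wild type MEFs on its other probe set (1.47), against -0.11 on the brightest. Srsf2 had 765 in knock out and 421 in wild type MEFs on 1 probe set (0.86) and 512 in knock out and 289 in wild type MEFs on another (0.82), while its brightest was at 0.05. Single probe sets of Hnrnpdl (0.78), Srsf10 (0.78) and Hnrnpab (0.65) and a pair of Sf3b2 (0.68 and 0.66) showed the same. The only gene with a probe set over 1.5-fold lower beside Sf3b6 was Hnrnpa2b1 (2501 in knock out and 4125 in wild type MEFs, -0.72), on an _x_at probe set, and all 4 of its probe sets were below 0. Where the probe sets lie along the transcripts was not determined, and whether they report different isoforms was not tested.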

How the data were processed

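RNA from Ebp1 knock out MEFs and RNA from wild type MEFs was measured on 1 array each. The deposited values are linear signal intensities per probe set. Per the labels they come from MAS5, and per the methods the authors scaled each array to the same mean. The genome build behind them is not stated. Of 45037 probe sets without controls, 34945 had 1 gene symbol in the platform annotation, 932 several and 9160 none here. Gene positions and promoters came from RefSeq (GRCm38.p6), where 34741 Entrez identifiers were found, those of all 47 splicing genes among them.
From these, knock out was divided by wild type and expressed as log2, for the brightest probe set of each gene. Counts cover genes that reached 500 on either array and were over 2-fold or 1.5-fold apart, a minimum and a fold taken from the study's methods except for the smaller fold. Medians cover genes that reached 100 on either array. No test was run, because 1 array per genotype leaves no spread between replicates, and the methods' p-value filter was not applied. Protein features were planned and not computed. Alternatives were median centring, quantile normalization, loess (fraction 0.3), spike-in scaling, the mean over all probe sets, the brightest probe set with neither the _x_at nor the _s_at suffix, 50 added to each signal, signals raised to 100, updated symbols and other minimum signals. The mean over probe sets with at least 100 was added after seeing the data.
The splicing genes and lists were chosen with earlier results of these data known. Named are, per class, the 3 genes with the highest signals and the 3 largest log2 ratios in each direction among genes at 100 or more on both arrays, any gene over 1.5-fold apart that reached 500, all genes under 100 on either array, and the 6 with the widest range between probe sets. Of the other lists up to 6 genes are named. Any other gene or probe set named was chosen after its values were seen. The count was tested on simulated data in which all probe sets of a gene shared the same fold. The choice among probe sets that disagree was therefore not tested. Precision is limited by the number of arrays. On the knock out array 57.1% and on the wild type array 57.9% of probe sets were under 100. Scripts ran on Python 3.11.15 with pandas 2.3.3, numpy 2.4.6, matplotlib 3.10.9 and statsmodels 0.14.6.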

Additional observations from a re-analysis of the deposited data

How the results depend on the processing

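No splicing gene was over 2-fold apart under any of the 12 alternatives run. The count of 0 genes over 1.5-fold became 11 with spike-in scaling, all lower in knock out MEFs, 3 with the mean over all probe sets (Hnrnpd, Sf3a3 and Sf3b5, all higher) and 1 with the mean over probe sets with at least 100 (Sf3a3, higher), an alternative chosen after seeing the data. It stayed at 0 under the others. The share of all genes over 1.5-fold apart was counted only with the values as deposited. The counts of 11, 3 and 1 therefore have no matching share beside them. Spike-in scaling subtracts the same amount from every log2 ratio, since the knock out array read 1.31-fold higher over the 9 probe sets for spiked-in control RNA, and it moved the median of all genes by -0.40 and that of the splicing genes to -0.45. Median centring moved all genes by -0.11. Hnrnpd and Sf3b5 passed through probe sets under 100 on both arrays. The median of the splicing genes was -0.16 with median centring and 0.02 with the mean over all probe sets, and its difference from the median of all genes ran from -0.06 to 0.02 over the settings. Of 469 log2 ratios of the 47 splicing genes under alternatives, 4 moved by over 1.5-fold, those of Sf3a3 (0.68 with either mean), Sf3b5 (0.97) and Hnrnpd (0.81) with the mean over all probe sets, and 61 changed sign, 18 of them with spike-in scaling and 15 with the mean over all probe sets. Among other named genes, Taf15 turned to 0.68 with the mean over all probe sets and Srrm1 to 0.15 without the _x_at and _s_at probe sets. Taf15 stayed at -0.77 with the mean over probe sets of at least 100. Pa2g4 was below 0 under each, from -1.03 to -0.58. No paired analysis was possible because each genotype has a single array and the labels number no replicates.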

Other observations

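Probe sets that the annotation gives to more than 1 symbol were left out of all counts above. There were 16 such probe sets with a splicing gene among their symbols, 14 of which reached 100 on at least 1 array, and none of them reached 500 and was over 2-fold apart. Hnrnpa3, Snrpd1, Snrpd2 and Snrpa were measured only by such probe sets, while Hnrnpa1 and Snrpn also had probe sets of their own. Those for Hnrnpa3, which the annotation shares with the gene model Gm6793, included 1 at 3176 in knock out MEFs and 3035 in wild type MEFs (log2 ratio 0.07) and 1 at 617 in knock out and 787 in wild type MEFs (-0.35). The Sm gene Snrpd2 had 2783 in knock out and 3066 in wild type MEFs (-0.14), and Snrpd1 had 1246 in knock out and 1015 in wild type MEFs (0.29). Snrpa of the U1 snRNP had 1043 in knock out and 1018 in wild type MEFs (0.03). Snurf and Snrpn are made from a joint transcript, and the measured probe sets shared by them lay on both sides of 0. The brightest gave 1714 in knock out and 1903 in wild type MEFs (-0.15). An _x_at probe set gave 386 in knock out and 687 in wild type MEFs (-0.83). Another _x_at probe set gave 451 in knock out and 434 in wild type MEFs (0.06). An _s_at probe set gave 190 in knock out and 83.3 in wild type MEFs (1.19). The probe set assigned to Snrpn alone was low on both arrays.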
